A study of Mus musculus with 12 samples.

Results

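The extracellular matrix of mesenchymal stromal cells (MSCs) was followed through 50 genes that encode collagens, laminins and other basement membrane proteins, proteoglycans, elastic fibre proteins, adhesive glycoproteins and the enzymes that hydroxylate and crosslink collagen. They were taken by gene symbol from a count table of 55487 mouse genes, and each symbol matched exactly 1 Ensembl identifier. The list is one of names, with no threshold on a measured value, but it was chosen with earlier results of these data known. RNA was sequenced from bone marrow-derived MSCs in 3 groups of 4 libraries. All groups carry a wild-type C57BL/6 genotype, and the study's methods state that the cells were primary cultures from the femurs of young adult female mice, grown over several passages in medium with fetal bovine serum. Control MSCs (the Negative group) were untreated. A1-treated MSCs received 50 μM A1 for 6 h, where A1 is a variant of the endosome-disrupting molecule Accum in which cholic acid, a bile acid, is linked to the nuclear localization signal of hnRNPA1. A1 + OVA-treated MSCs (the A1-OVA group) received 50 μM A1 with 1 mg/mL ovalbumin (OVA), the egg white protein used as a model antigen, also for 6 h. MSCs given OVA without A1 were not analysed here, and the labels do not say whether the 4 libraries of a group came from separate mice or cultures, so that p-values measure only the spread between these libraries. The comparisons ask how the matrix transcripts of MSCs differed after A1, after A1 + OVA, and between both treatments.

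Fibrillar collagens form the tensile cables of connective tissue, while collagen IV, laminins, nidogens and perlecan build the sheet-like basement membrane. Collagen chains are hydroxylated in the endoplasmic reticulum, assembled as triple helices, secreted, trimmed, and crosslinked outside the cell by lysyl oxidases. Matricellular proteins such as tenascin-C and the thrombospondins bind this scaffold and cell surface receptors without bearing load, and marrow stromal cells are among the main producers of matrix in bone marrow.

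Libraries held between 13702348 and 16881995 counts, of which 97.7% to 98.5% lay in protein-coding genes. Of the protein-coding genes, 11314 passed the filter on low counts and were tested. Values are given in CPM, counts scaled to a common depth after correction of the library sizes by TMM. A gene is called here when its adjusted p in edgeR's quasi-likelihood test is under 0.05, and a larger change is a called one of 0.5 log2 units or more in size. Of the 11 markers of the labelled cell type, 9 passed the filter, with Cxcl12 at 3753 to 4029 CPM, Itgb1 at 1451 ± 71.5 CPM, Pdgfrb at 389 ± 21.3 CPM and Cd44 at 175 ± 6.50 CPM (SD, n = 4) in control MSCs. Thy1, Lepr and Nt5e, the last of which passed the filter, were near 0 with at most 17, 16 and 14 counts in any library. The 11 macrophage and leukocyte markers summed to 1.8 to 3.2 CPM, with C1qa, C1qb, C1qc and Tyrobp at 0 counts in all 12 libraries.

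Matrix transcripts moved in both directions. In A1-treated MSCs, 23 of the 44 tested members were higher than in control MSCs, 12 were lower and 9 did not pass the test. Over all tested genes, 62.7% were called in this comparison, 31.7% as higher and 31.1% as lower. In A1 + OVA-treated MSCs, 25 members were higher, 12 were lower and 7 did not pass, beside 57.6% of all tested genes called (29.7% higher and 27.9% lower). Both comparisons use the same 4 control libraries. Larger changes of either direction were called for 21% of all tested genes with A1 and 17.7% with A1 + OVA, and for 16 members in each. A larger rise was found for 10 members with A1 and 11 with A1 + OVA, where 9.41% and 8.92% of all tested genes had one. A larger fall was found for 6 and 5 members, against 11.6% and 8.79% of all tested genes. The members are abundant transcripts, with a median mean level of 343 CPM against 36.8 CPM over all tested genes. The A1 libraries did not overlap the control libraries in 32 of the 44 members (54.4% of all tested genes), nor did the A1 + OVA libraries in 34 (49.4%). The members' median log2 fold change was 0.14 with A1 and 0.21 with A1 + OVA, beside -0.002 and 0.004 over all tested genes.

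**Figure D1:**
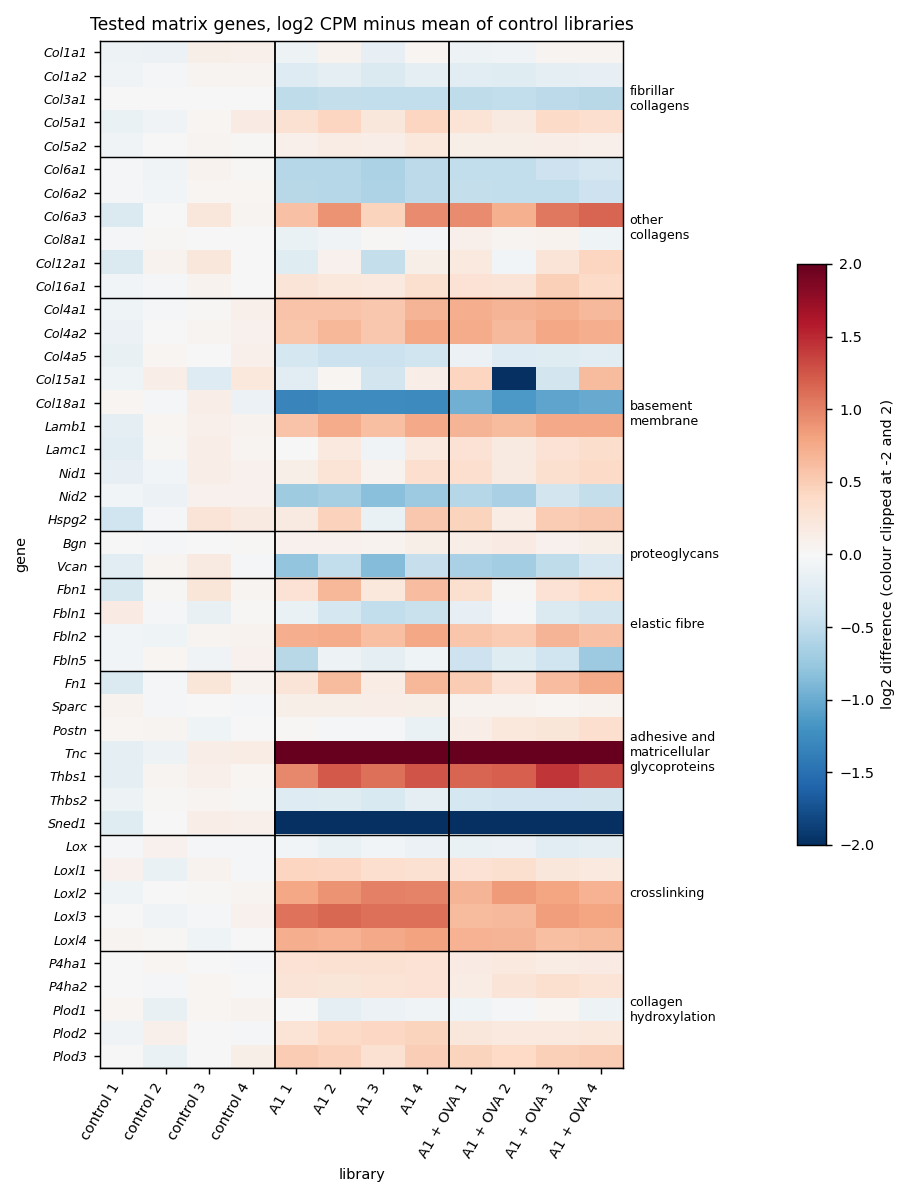
Each row is a tested matrix gene, grouped by class, and each column a library; colour shows the log2 CPM minus the mean of the 4 control libraries, clipped at -2 and 2. The strongest red row is Tnc (log2 fold change 3.36 with A1) and the strongest blue row Sned1 (-3.15), and every class except collagen hydroxylation holds called members of both directions with A1.

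In libraries of bulk RNA, fewer cells of a type and less RNA per cell cannot be told apart. Together the 50 members took 4.02 ± 0.194% of all counts in control MSCs (SD, n = 4), 4.28 ± 0.257% with A1 and 4.44 ± 0.198% with A1 + OVA. By exact two-sided permutation tests the difference between the A1 share and control did not pass (p = 0.200, Benjamini-Hochberg adjusted 0.300), and that of A1 + OVA reached the smallest p that 4 against 4 libraries allow (p = 0.0286) and did not pass after adjustment over the 3 comparisons (0.0858). The largest part of that share moved in the adhesive and matricellular glycoproteins, whose summed level was 10350 ± 796 CPM in control, 15610 ± 1550 CPM with A1 and 16250 ± 1120 CPM with A1 + OVA. The summed level of the fibrillar collagens was 10530 ± 539, 9820 ± 448 and 9857 ± 293 CPM in the same groups.

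At the level of single genes, the highest transcript per kilobase of exon in control MSCs was Lox, at 1070 CPM per kb, followed by Sparc (541), Col6a1 (509), Col1a1 (508), Thbs1 (450.0) and Bgn (425). These lengths are the union of all annotated exons of a gene. With A1 + OVA, Thbs1 stood first at 1090 CPM per kb. The other 6 genes of the list were hardly transcribed and were not tested. Their highest count in any library was 6 for Col11a1, 3 for Col14a1, 2 for Lama4, 1 for Dcn, 1 for Lum and 0 for Eln. Dcn and Lum encode decorin and lumican, small proteoglycans that sit on collagen fibrils, and Eln encodes elastin. At this depth 3 counts correspond to 0.177 to 0.229 CPM, and of these 6 genes only Col11a1 exceeded that floor, in control library 1.

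The fibrillar collagen genes split. Col3a1, the homotrimeric partner of collagen I in pliable tissue, fell, Col5a1 and Col5a2, which encode the chains that nucleate fibrils, rose slightly, and Col1a1 showed no change that passed the test. Col3a1 was at 1026, 1034, 1034 and 1024 CPM in control libraries 1 to 4, at 727, 737, 729 and 730.2 CPM in the A1 libraries and at 720.2, 735, 715 and 699.5 CPM in the A1 + OVA libraries. All 8 treated libraries lay below all 4 control libraries, and the spread within each group was small. Its log2 fold change was -0.49 ± 0.03 (SE, adjusted p = 1.56e-11) with A1 and -0.52 ± 0.03 (SE, adjusted p = 7.61e-12) with A1 + OVA. Col3a1 overlaps the gene model Gm47302 on the same strand over 141 bases, so a small part of its reads could be assigned to either.

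Col1a1, which encodes the main chain of collagen I, ranged from 3068 to 3593 CPM in control, from 2979 to 3473 with A1 and from 3109 to 3468 with A1 + OVA. Its groups overlapped, and the 95% interval of its log2 fold change ran from -0.16 to 0.08 with A1 and from -0.14 to 0.10 with A1 + OVA. Col1a2, which encodes the other chain of the same trimer, was lower, with log2 fold changes of -0.23 ± 0.04 (SE, adjusted p = 3.32e-05) and -0.20 ± 0.04 (SE, adjusted p = 1.41e-04). Col5a1 had 0.34 ± 0.06 (SE, adjusted p = 3.30e-05) and 0.29 ± 0.06 (SE, adjusted p = 2.53e-04) on the log2 scale. Col5a2 had 0.15 ± 0.04 (SE, adjusted p = 0.00127) and 0.11 ± 0.04 (SE, adjusted p = 0.0112). The Col1a2 to Col1a1 ratio was 0.878 and 0.879 times the control ratio (exact permutation p = 0.0286 for each, adjusted 0.0667 over 21 tests). That of Col5a2 to Col5a1 was 0.873 and 0.884 times, with overlapping groups (exact permutation p = 0.0571 for each, adjusted 0.109). Of the 5 tested fibrillar genes, 2 were higher and 2 lower in each treatment. Beside them, 31.7% of all tested genes were higher and 31.1% lower with A1, and 29.7% and 27.9% with A1 + OVA. The median log2 value of the 5 fibrillar genes was -0.04 with A1 and -0.02 with A1 + OVA.

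Collagen VI, a beaded filament around cells built from 3 different chains, showed chains moving apart. Col6a1 was at 2173, 2132, 2346 and 2271 CPM in control, 1508, 1504, 1430 and 1553 CPM with A1 and 1579, 1592, 1674 and 1760 CPM with A1 + OVA. Col6a3 was at 717, 882, 1020 and 907 CPM in control, 1309, 1632, 1190 and 1686 CPM with A1 and 1677, 1439, 1821 and 1950 CPM with A1 + OVA. Every treated library lay below the control range for Col6a1 and above it for Col6a3.

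The log2 fold change of Col6a1 was -0.57 ± 0.04 (SE, adjusted p = 1.54e-10) with A1 and -0.43 ± 0.04 (SE, adjusted p = 1.56e-08) with A1 + OVA. Col6a2 was lower too, with log2 fold changes of -0.56 ± 0.04 (SE, adjusted p = 1.60e-11) and -0.47 ± 0.04 (SE, adjusted p = 3.91e-10). Col6a3 rose, with log2 fold changes of 0.72 ± 0.10 (SE, adjusted p = 3.99e-06) and 0.97 ± 0.10 (SE, adjusted p = 7.37e-08). The ratio of Col6a3 to Col6a1 counts was 2.45 times the control ratio with A1 and 2.64 times with A1 + OVA, and that of Col6a3 to Col6a2 was 2.43 and 2.71 times. The Col6a2 to Col6a1 ratio stayed within the spread of the libraries (1.01 and 0.976 times the control ratio, exact p = 0.629 and 0.257). In the Col6a3 ratios the groups did not overlap, and exact two-sided permutation tests gave p = 0.0286, the smallest value possible with 4 against 4 libraries, and 0.0667 after adjustment over the 21 tests on 7 chain pairs.

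**Figure D2:**
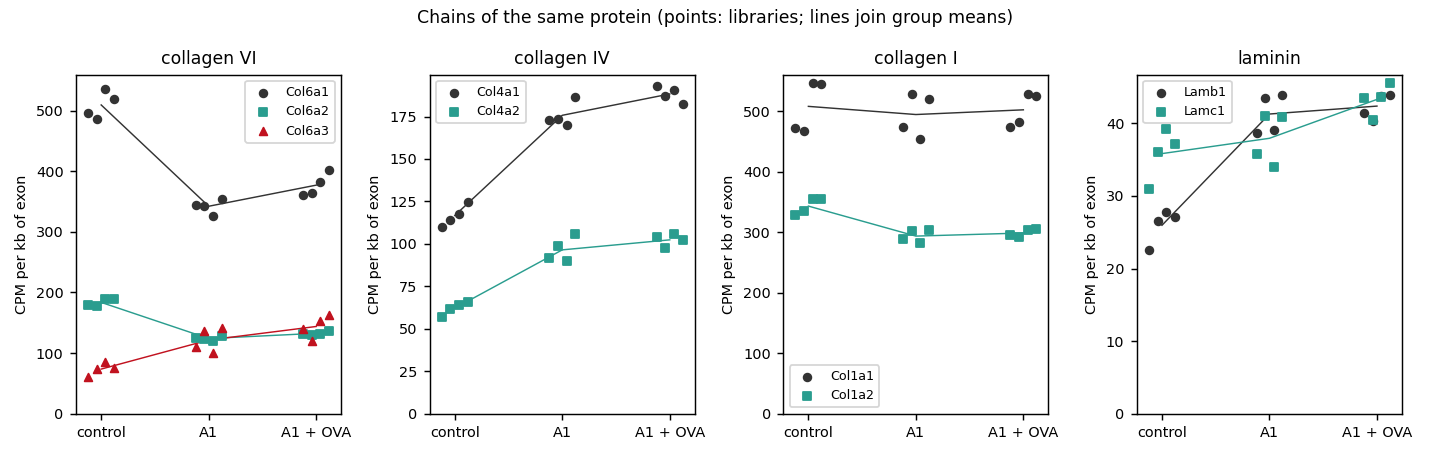
CPM per kb of exon for chains of the same protein, with 1 point per library (n = 4 per group) and lines through group means. Col6a1 and Col6a2 fell while Col6a3 rose to 122 and 144 CPM per kb from 73.7, Col4a1 and Col4a2 rose in step, and Lamb1 gained on Lamc1 (ratio of Lamc1 to Lamb1 0.665 and 0.741 times control).

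Because these chains parted within 1 protein, the bases just upstream of their genes are shown, from RefSeq on GRCm38.p6 and in the direction of transcription. Col6a1 and Col6a2 are neighbours on chromosome 10 and Col6a3 lies on chromosome 1, all on the minus strand. The stretches are chr10:76726169-76726294, chr10:76623631-76623880 and chr1:90843972-90844221, and the first of them is shorter because bases annotated as transcribed in either annotation were left out.
Col6a1: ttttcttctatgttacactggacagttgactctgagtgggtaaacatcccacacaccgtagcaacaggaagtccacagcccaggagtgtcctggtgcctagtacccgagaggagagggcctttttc
Col6a2: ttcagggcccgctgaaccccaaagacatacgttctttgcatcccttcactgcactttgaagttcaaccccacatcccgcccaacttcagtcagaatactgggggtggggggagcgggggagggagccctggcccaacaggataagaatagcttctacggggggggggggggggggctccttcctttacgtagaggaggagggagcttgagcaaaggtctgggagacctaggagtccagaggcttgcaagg
Col6a3: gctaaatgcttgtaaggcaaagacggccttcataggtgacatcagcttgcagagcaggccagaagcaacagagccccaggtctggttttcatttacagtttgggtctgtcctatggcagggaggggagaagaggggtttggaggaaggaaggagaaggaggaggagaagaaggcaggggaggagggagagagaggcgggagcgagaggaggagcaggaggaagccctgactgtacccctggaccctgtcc
No searched motif lay in these 3 stretches, so no letters are in capitals. The motifs were TGANTCA (the AP-1 site), TGACGTCA (the cAMP response element), ACGTG (the core of the hypoxia response element), CCAAT and TATAAA, on both strands. In the full window of 250 bases before the RefSeq start, which for Col6a1 reaches beyond the bases shown, TGANTCA occurred in Col6a1 alone among the 33 members that had a window (3.03%), against 6.75% of all 32851 windows. CCAAT occurred in 13 of the 33 windows (39.4%, all windows 33.8%), ACGTG in 6 (18.2%, all windows 16.6%), TATAAA in 5 (15.2%, all windows 12.4%) and TGACGTCA in 0 (all windows 1.55%). The matches describe letters only.

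Col16a1, which encodes a fibril-associated collagen, rose, with log2 fold changes of 0.24 ± 0.05 (SE, adjusted p = 9.79e-05) with A1 and 0.35 ± 0.04 (SE, adjusted p = 9.28e-07) with A1 + OVA and all treated libraries above all control libraries. Col8a1, which encodes a network-forming short chain, had log2 fold changes of -0.05 ± 0.04 (SE, adjusted p = 0.314) and 0.03 ± 0.04 (SE, adjusted p = 0.515). Col12a1, which encodes another fibril-associated collagen, ranged from 434 to 622 CPM in control, from 383 to 578 CPM with A1 and from 513 to 717 CPM with A1 + OVA. Its 95% intervals were wide, -0.35 to 0.12 with A1 and -0.02 to 0.45 with A1 + OVA. The A1 + OVA value passed in 4 other settings, with no filter on low counts (0.20, adjusted p = 0.00977), the long-gene covariate (0.21, 3.82e-06), without control library 3 (0.29, 0.0392) and without A1 + OVA library 2 (0.29, 0.0311). The A1 value passed with the covariate (-0.12, adjusted p = 0.00206). Adjusted p-values with that covariate understate the uncertainty, as described below.

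Among basement membrane genes, Col4a1, Col4a2 and laminin β1 rose while Col4a5, collagen XVIII and nidogen-2 fell. Col4a1 and Col4a2 encode the chains of the collagen IV network of nearly all basement membranes. Col4a1 was at 823, 850.4, 879.9 and 932 CPM in control, 1289, 1297, 1270 and 1390 CPM with A1 and 1440, 1397, 1421 and 1363 CPM with A1 + OVA. All treated libraries were above all control libraries, and the same held for Col4a2. The log2 fold changes were 0.59 ± 0.04 (SE, adjusted p = 6.27e-11) and 0.69 ± 0.04 (SE, adjusted p = 5.21e-12) for Col4a1, and 0.64 ± 0.05 (SE, adjusted p = 4.65e-10) and 0.72 ± 0.05 (SE, adjusted p = 6.37e-11) for Col4a2. The Col4a2 to Col4a1 ratio was 1.03 and 1.02 times the control ratio, with overlapping groups (exact p = 0.286 and 0.343). These genes stand head to head on chromosome 8, Col4a1 on the minus strand with its annotated start at 11312826 and Col4a2 on the plus strand with its start at 11312805 (GRCm38), so that their first 22 bases overlap on opposite strands. Col4a5, which encodes a chain of the other collagen IV networks, went the other way, with log2 fold changes of -0.41 ± 0.05 (SE, adjusted p = 4.61e-07) and -0.21 ± 0.05 (SE, adjusted p = 9.14e-04).

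Col18a1, whose product carries heparan sulfate and releases endostatin, fell most in this class. It was at 28.3, 26.8, 30.3 and 25.4 CPM in control, 11.1, 11.5, 11.5 and 11.5 CPM with A1 and 14.3, 12.4, 13.3 and 13.7 CPM with A1 + OVA. Control and treated libraries were far apart, and the A1 + OVA libraries lay slightly above the A1 libraries. Its log2 fold change was -1.28 ± 0.07 (SE, adjusted p = 1.37e-12) with A1 and -1.05 ± 0.07 (SE, adjusted p = 1.98e-11) with A1 + OVA.

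The nidogens, which link the laminin and collagen IV networks, parted as well. Nid2 was at 43.4, 41.3, 48.0 and 47.8 CPM in control, 27.5, 28.5, 25.2 and 27.2 CPM with A1 and 30.4, 28.8, 34.9 and 32.4 CPM with A1 + OVA, with no overlap between control and treated libraries. Its log2 fold change was -0.73 ± 0.07 (SE, adjusted p = 3.64e-09) with A1 and -0.51 ± 0.06 (SE, adjusted p = 5.86e-07) with A1 + OVA. Nid1 had 0.19 ± 0.06 (SE, adjusted p = 0.0105) and 0.31 ± 0.06 (SE, adjusted p = 2.55e-04) on the same scale, and the A1 call was lost without A1 library 4 (0.14, adjusted p = 0.0686).

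Lamb1, the β1 chain of laminin, was at 223, 263, 275 and 268 CPM in control, 383, 431, 388 and 436 CPM with A1 and 412, 399.5, 435 and 436 CPM with A1 + OVA. Its log2 fold change was 0.67 ± 0.06 (SE, adjusted p = 1.42e-09) and 0.71 ± 0.06 (SE, adjusted p = 6.28e-10), with all treated libraries above control. Lamc1, the γ1 chain that joins it in most laminins, had 0.08 ± 0.07 (SE, adjusted p = 0.275) with A1 and 0.27 ± 0.06 (SE, adjusted p = 0.001) with A1 + OVA. The Lamc1 to Lamb1 ratio was 0.665 times the control ratio with A1 and 0.741 times with A1 + OVA (exact p = 0.0286 for each, adjusted 0.0667). Hspg2, which encodes perlecan, had log2 fold changes of 0.26 ± 0.13 (SE, adjusted p = 0.0728) and 0.39 ± 0.12 (SE, adjusted p = 0.0106). The latter call was lost with DESeq2 (adjusted p = 0.0550). The A1 value passed in 5 other settings, with no filter on low counts (adjusted p = 0.00216), the replicate block (0.0461), the long-gene covariate (2.04e-05), without control library 3 (0.0262) and without A1 library 3 (0.00918), and ranged from 0.15 to 0.37 with 1 library left out. The adjusted p with the covariate understates the uncertainty here as well. Col15a1, a relative of Col18a1, had at most 15 counts in a library and log2 intervals of -0.91 to 0.71 and -0.83 to 0.72, so that neither direction can be given. Of the 10 tested basement membrane genes, 4 were higher and 3 lower with A1, and 6 were higher and 3 lower with A1 + OVA. Over all tested genes the shares were 31.7% higher and 31.1% lower with A1, and 29.7% and 27.9% with A1 + OVA.

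**Figure D3:**
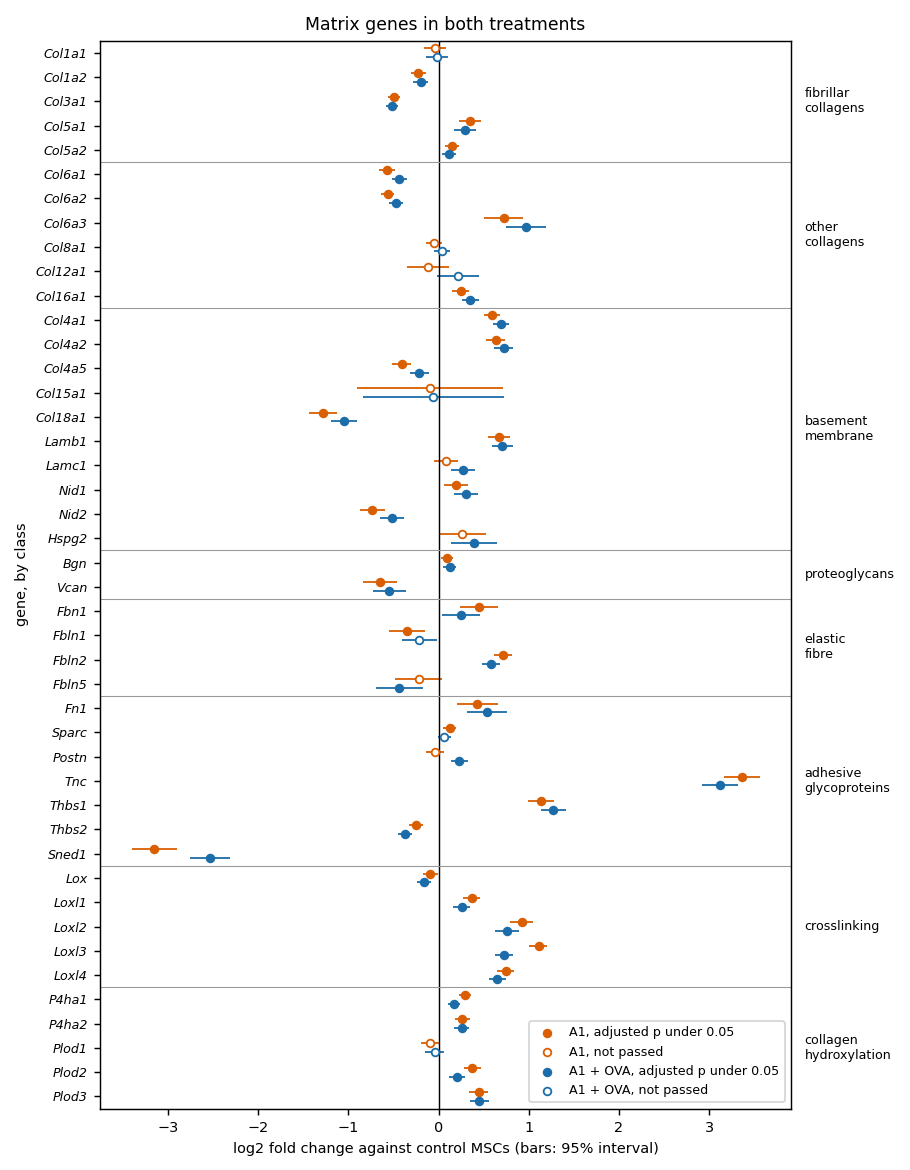
Log2 fold change of each tested member against control MSCs with its 95% interval, for A1 (orange) and A1 + OVA (blue); filled points had an adjusted p under 0.05. Tnc and Sned1 lie far outside the others, at 3.36 and -3.15 with A1. The widest interval is that of the low-count Col15a1 (-0.91 to 0.71 with A1), and those of Hspg2, Fbln5, Sned1, Col12a1, Fn1, Col6a3 and Fbn1 are wide too.

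The proteoglycan genes that were expressed were Bgn and Vcan. Vcan encodes versican, the large hyaluronan-binding proteoglycan of provisional matrix. It was at 1045, 1251, 1364 and 1182 CPM in control, 697, 859.7, 659 and 871 CPM with A1 and 766, 741, 848 and 959 CPM with A1 + OVA. The highest treated library was below the lowest control library, and the log2 fold change was -0.65 ± 0.09 (SE, adjusted p = 1.82e-06) with A1 and -0.55 ± 0.09 (SE, adjusted p = 1.92e-05) with A1 + OVA. Bgn, which encodes the small collagen-binding proteoglycan biglycan, ranged from 2519 to 2637 CPM in control and from 2723 to 2891 CPM in the treated libraries. Its log2 fold change was 0.09 ± 0.03 (SE, adjusted p = 0.0225) with A1 and 0.12 ± 0.03 (SE, adjusted p = 0.00333) with A1 + OVA. The A1 call was lost under upper-quartile scaling (0.06, adjusted p = 0.106), with no filter on low counts (adjusted p = 0.0564), without control library 2 (adjusted p = 0.0553) and without A1 library 4 (adjusted p = 0.0879).

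In the elastic fibre class, Fbln2, a fibulin that binds fibrillin and basement membranes, rose. It was at 478, 464, 515 and 521 CPM in control, 818, 829, 747 and 844 CPM with A1 and 727, 700.4, 789 and 739 CPM with A1 + OVA. No treated library reached down to the control range, and the log2 fold change was 0.71 ± 0.05 (SE, adjusted p = 2.59e-11) with A1 and 0.58 ± 0.05 (SE, adjusted p = 8.48e-10) with A1 + OVA. Fbn1, which encodes fibrillin-1 of the microfibrils, was at 151, 191, 222 and 195 CPM in control, 231, 297, 217 and 287 CPM with A1 and 235, 190.1, 229.9 and 249 CPM with A1 + OVA. Control library 3 lay above A1 library 3, so that the groups overlapped, and the log2 fold change was 0.44 ± 0.10 (SE, adjusted p = 6.88e-04) and 0.25 ± 0.10 (SE, adjusted p = 0.0379). The A1 + OVA call was lost with DESeq2 (0.25, adjusted p = 0.134), upper-quartile scaling (adjusted p = 0.0570), all gene types (adjusted p = 0.0548) or with any of 6 libraries left out, namely control 1, 2 and 4 and A1 + OVA 1, 3 and 4 (adjusted p = 0.0543 to 0.154).

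The other 2 fibulins were rare. Fbln1 ranged from 13.4 to 16.5 CPM in control, from 10.5 to 13.5 CPM with A1 and from 11.4 to 14.5 CPM with A1 + OVA, with log2 fold changes of -0.35 ± 0.10 (SE, adjusted p = 0.00317) and -0.21 ± 0.09 (SE, adjusted p = 0.0529). The A1 + OVA value passed the threshold under most other settings (for example DESeq2 size factors in edgeR, adjusted p = 0.0458). Fbln5, a fibulin needed for elastic fibre assembly, lay between 3.27 and 5.71 CPM in all libraries, with log2 fold changes of -0.22 ± 0.12 (SE, adjusted p = 0.129) and -0.44 ± 0.13 (SE, adjusted p = 0.00525).

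The adhesive and matricellular glycoproteins held the extremes of the list. Tnc (ENSMUSG00000028364, chr4:63959785-64047015, minus strand) encodes tenascin-C, a large glycoprotein of wound beds and embryonic mesenchyme. It was at 82.6, 87.1, 102 and 103 CPM in control, 811, 1081, 837 and 1104 CPM with A1 and 802, 731, 860.3 and 851 CPM with A1 + OVA. Every treated library was far above every control library, and A1 libraries 2 and 4 were the highest. Group means were 93.5 ± 10.2, 958 ± 156 and 811 ± 59.1 CPM (SD, n = 4), that is, 10.2 and 8.68 times control, and the log2 fold change was 3.36 ± 0.10 (SE, adjusted p = 1.89e-17) with A1 and 3.12 ± 0.10 (SE, adjusted p = 6.91e-17) with A1 + OVA. Because it rose most, the 250 bases upstream of its RefSeq start are given (chr4:64047016-64047265, minus strand, GRCm38.p6), with a TATAAA match in capitals that begins 126 bases before the start.
Tnc: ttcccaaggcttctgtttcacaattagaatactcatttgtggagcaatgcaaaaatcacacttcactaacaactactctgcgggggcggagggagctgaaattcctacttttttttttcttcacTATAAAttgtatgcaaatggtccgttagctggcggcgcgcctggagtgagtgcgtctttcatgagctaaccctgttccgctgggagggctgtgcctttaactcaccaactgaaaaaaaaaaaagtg
TATAAA was found in 12.4% of all windows.

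Sned1 (ENSMUSG00000047793, chr1:93235841-93301065, plus strand), which encodes a fibronectin and nidogen domain protein of the interstitial matrix, was the largest fall. It was at 24.5, 28.8, 31.6 and 31.0 CPM in control, 3.40, 3.59, 2.98 and 3.05 CPM with A1 and 4.49, 3.99, 6.07 and 5.42 CPM with A1 + OVA. The A1 and A1 + OVA libraries did not overlap either, and all 4 A1 libraries were lower. Means were 28.99 ± 3.21, 3.25 ± 0.289 and 5.00 ± 0.933 CPM (SD, n = 4), which is 0.113 and 0.173 times control, and the log2 fold change with A1 + OVA was -2.53 ± 0.11 (SE, adjusted p = 1.30e-14). The part of its upstream window that precedes both annotated starts (chr1:93235647-93235840, plus strand, GRCm38.p6) held no searched motif.
Sned1: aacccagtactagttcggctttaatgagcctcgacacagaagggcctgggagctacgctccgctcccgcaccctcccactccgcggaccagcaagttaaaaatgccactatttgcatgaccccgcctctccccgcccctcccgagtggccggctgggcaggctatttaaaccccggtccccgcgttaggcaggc
A 6-base overlap with the model Mir6901 lies within the gene.

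Thbs1 and Thbs2 encode thrombospondins, trimers that bind matrix and growth factors. Thbs1 was at 2376, 2829, 2919 and 2814 CPM in control, 5282, 6381, 5846 and 6487 CPM with A1 and 6135, 6270, 7316 and 6686 CPM with A1 + OVA. All treated libraries lay above all control libraries, at 2.19 and 2.41 times the control mean, with log2 fold changes of 1.13 ± 0.07 (SE, adjusted p = 4.11e-12) and 1.27 ± 0.07 (SE, adjusted p = 7.74e-13). Thbs2 fell, from 1735 ± 76.4 CPM in control to 1459 ± 44.8 CPM with A1 and 1341 ± 11.7 CPM with A1 + OVA (SD, n = 4). Its log2 fold changes were -0.25 ± 0.04 (SE, adjusted p = 6.55e-06) and -0.37 ± 0.04 (SE, adjusted p = 2.55e-08), and the 2 thrombospondins thus had opposite signs in both treatments.

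Fn1, which encodes fibronectin, was at 2947, 3527, 4243 and 3792 CPM in control, 4304, 5565, 3993 and 5673 CPM with A1 and 5139, 4371, 5536 and 5988 CPM with A1 + OVA. Control library 3 was above A1 library 3, and the A1 + OVA libraries lay above all control libraries. The log2 fold change was 0.43 ± 0.11 (SE, adjusted p = 0.00177) with A1 and 0.54 ± 0.11 (SE, adjusted p = 2.44e-04) with A1 + OVA. Postn, which encodes periostin, was at 84.2, 84.6, 77.4 and 81.0 CPM in control, 82.7, 80.0, 80.6 and 74.3 CPM with A1 and 89.3, 94.8, 96.5 and 103 CPM with A1 + OVA. The difference from control passed the test with A1 + OVA, at 0.23 ± 0.05 (SE, adjusted p = 2.67e-04) on the log2 scale against -0.04 ± 0.05 (SE, adjusted p = 0.448) with A1. Sparc, which encodes the collagen-binding protein osteonectin, had 0.12 ± 0.03 (SE, adjusted p = 0.00399) and 0.06 ± 0.03 (SE, adjusted p = 0.131).

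**Figure D4:**
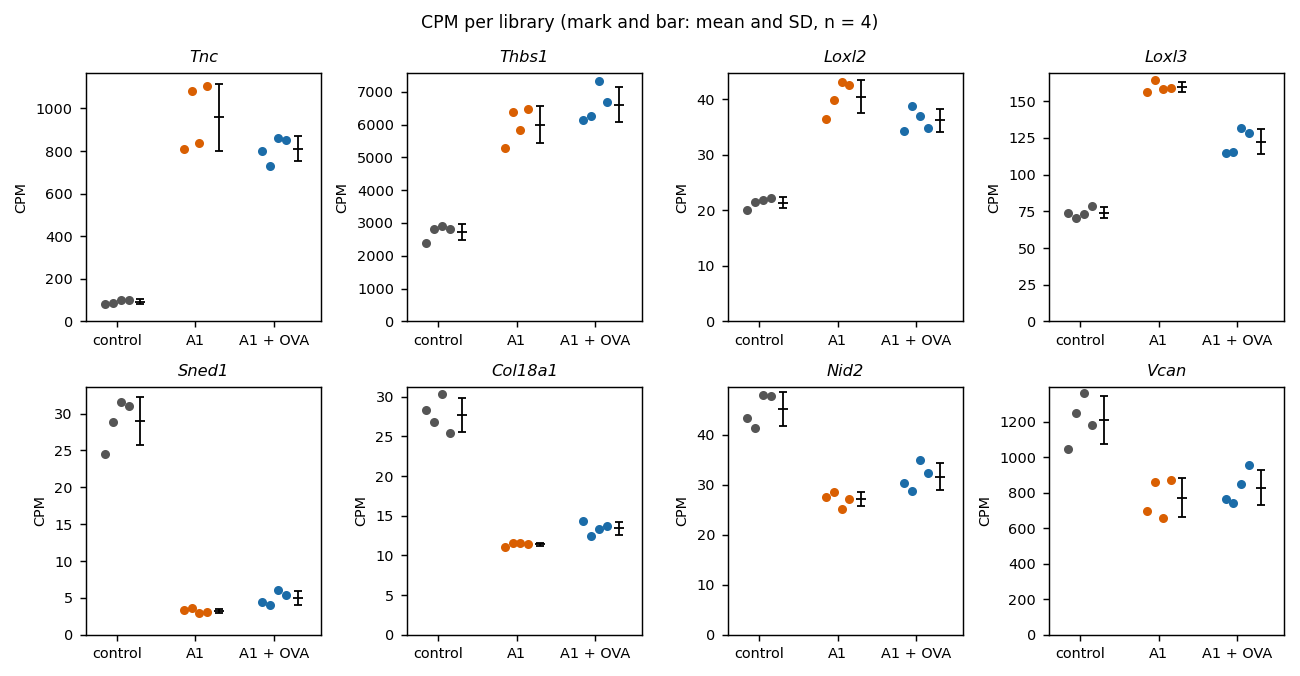
CPM in each library for 8 members, with the mean and SD of each group (n = 4) beside the points and the axis starting at 0. Tnc, Thbs1, Loxl2 and Loxl3 lie higher in all treated libraries than in all control libraries, and Sned1, Col18a1, Nid2 and Vcan lie lower.

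All 5 lysyl oxidase genes were called in both treatments, 4 as higher and Lox as lower, beside 62.7% of all tested genes called with A1 (31.7% higher) and 57.6% with A1 + OVA (29.7% higher). These copper enzymes oxidize lysines of collagen and elastin so that crosslinks can form. Loxl3 was at 74.1, 70.2, 73.1 and 78.9 CPM in control, 156, 164, 158 and 159 CPM with A1 and 115, 115, 132 and 128 CPM with A1 + OVA. The 3 groups did not overlap, with A1 + OVA between control and A1. Its log2 fold change was 1.11 ± 0.05 (SE, adjusted p = 1.69e-14) with A1 and 0.73 ± 0.05 (SE, adjusted p = 2.36e-11) with A1 + OVA.

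Loxl2, whose product also acts on collagen IV, was at 20.1, 21.6, 21.8 and 22.1 CPM in control, 36.5, 39.9, 43.0 and 42.5 CPM with A1 and 34.2, 38.7, 37.0 and 34.8 CPM with A1 + OVA. Treated libraries were all above control, with log2 fold changes of 0.92 ± 0.06 (SE, adjusted p = 4.34e-11) and 0.76 ± 0.06 (SE, adjusted p = 1.15e-09). Loxl4 had 0.75 ± 0.04 (SE, adjusted p = 4.17e-12) and 0.65 ± 0.04 (SE, adjusted p = 4.43e-11), and Loxl1, an enzyme tied to elastic fibres, 0.37 ± 0.05 (SE, adjusted p = 4.63e-07) and 0.26 ± 0.05 (SE, adjusted p = 5.63e-05). The median log2 fold change of the class was 0.75 with A1 and 0.65 with A1 + OVA.

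Lox itself, the founding enzyme and the most abundant of them per kb of exon, was at 5038, 5416, 5006 and 5061 CPM in control, 4922, 4656, 4924 and 4733 CPM with A1 and 4676, 4747, 4376 and 4532 CPM with A1 + OVA. The treated libraries lay just below the control range, and control library 2 stood above the other three. The log2 fold change was -0.09 ± 0.04 (SE, adjusted p = 0.043) with A1 and -0.16 ± 0.04 (SE, adjusted p = 0.0012) with A1 + OVA. The A1 call was lost when control library 2 or 4, A1 library 2 or 4, or A1 + OVA library 4 was left out (adjusted p = 0.0504 to 0.144). Lox held most of the counts of its class, and the summed level of all 5 was 5406 ± 182 CPM in control, 5258 ± 133 CPM with A1 and 4973 ± 163 CPM with A1 + OVA.

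Of the 5 collagen hydroxylases 4 rose in each treatment, beside 31.7% of all tested genes called higher with A1 and 29.7% with A1 + OVA, and none by 0.5 log2 units or more. P4ha1 and P4ha2, the catalytic subunits of prolyl hydroxylase that stabilise the triple helix, had log2 fold changes of 0.29 ± 0.03 (SE, adjusted p = 9.70e-08) and 0.26 ± 0.04 (SE, adjusted p = 4.17e-06) with A1, and 0.17 ± 0.03 (SE, adjusted p = 1.35e-04) and 0.25 ± 0.04 (SE, adjusted p = 7.67e-06) with A1 + OVA. P4ha1 was at 249, 258, 249 and 246 CPM in control, 305, 308, 308 and 306 CPM with A1 and 281, 287, 279 and 280.5 CPM with A1 + OVA, a narrow spread in which the 3 groups did not overlap. Of the lysyl hydroxylases, Plod3 had 0.44 ± 0.05 (SE, adjusted p = 1.75e-07) and 0.45 ± 0.05 (SE, adjusted p = 1.32e-07), and Plod2, which hydroxylates the telopeptides used in crosslinks, 0.38 ± 0.04 (SE, adjusted p = 1.58e-07) and 0.20 ± 0.04 (SE, adjusted p = 3.85e-04). Plod1 did not pass, with 95% intervals of -0.20 to 0.01 and -0.15 to 0.06, and it passed for A1 under upper-quartile scaling (-0.12, adjusted p = 0.0422) and without control library 2 (-0.14, adjusted p = 0.0120).

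In the direct comparison of A1 + OVA with A1, 5 members were higher (Sned1, Postn, Nid2, Col4a5 and Col6a1) and 4 were lower (Loxl3, Plod2, P4ha1 and Thbs2), while 35 did not pass. Over all tested genes 12.9% were called, 6.05% as higher and 6.81% as lower. The groups did not overlap in 13 members, beside 18.1% of all tested genes. Sned1 was the one member with a larger change, at 0.62 ± 0.16 (SE, adjusted p = 0.0141) on the log2 scale, where 1.20% of all tested genes had one and 0.769% had one upwards. Without A1 + OVA library 3 its value was 0.51 (adjusted p = 0.0556). Of the members that did not pass, Lamc1 passed in 11 of the 21 other settings, Col12a1 in 7, and Tnc and Fbln2 in 5 each.

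Of the other differences between A1 + OVA and A1, Loxl3 had -0.38 ± 0.05 (SE, adjusted p = 1.32e-05), Postn 0.27 ± 0.05 (SE, adjusted p = 6.64e-04), Plod2 -0.17 ± 0.04 (SE, adjusted p = 0.0112), Col4a5 0.19 ± 0.05 (SE, adjusted p = 0.0151) and P4ha1 -0.12 ± 0.03 (SE, adjusted p = 0.016). These 5 calls held in every setting tried. The calls of Col6a1 (0.14 ± 0.04, adjusted p = 0.0346), Nid2 (0.22 ± 0.07, adjusted p = 0.0381) and Thbs2 (-0.12 ± 0.04, adjusted p = 0.0374) were lost without 1 of several libraries. For Col6a1 these were A1 libraries 1, 2 and 3 and A1 + OVA libraries 3 and 4 (adjusted p = 0.0636 to 0.139), for Nid2 A1 libraries 1, 3 and 4 and A1 + OVA libraries 3 and 4 (0.0761 to 0.133), and for Thbs2 A1 libraries 1, 2 and 4 and A1 + OVA libraries 2, 3 and 4 (0.0562 to 0.108). The difference for Tnc was -0.24 ± 0.09 (SE, adjusted p = 0.0671), with a 95% interval of -0.42 to -0.06, and for Col6a3 0.24 ± 0.10 (SE, adjusted p = 0.129), with an interval of 0.03 to 0.46. Sned1, Nid2, Col4a5 and Col6a1, lower than control in both treatments, were nearer to control with A1 + OVA. Loxl3, Plod2 and P4ha1, higher than control in both, were nearer to control with A1 + OVA too. Thbs2, lower in both, was further from control, and Postn was above both other groups.

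Members with long coding sequences had a wide spread between libraries, exceeded among the other members by the low-count Col15a1. The 7 tested members with at least 6 kb of coding sequence (Fn1, Col6a3, Fbn1, Tnc, Hspg2, Col12a1 and Vcan) had a median within-group SD of 0.216 log2 units, against 0.074 for the other 37 members and 0.145 for the 293 other tested genes of that length. They deviated from their group means in the same libraries. In control MSCs all 7 were lowest in library 1, and in A1 + OVA all 7 were lowest in library 2, which were also the libraries where the other long genes had their lowest median. In A1, 6 of 7 were lowest in library 3, again the lowest library of the other long genes. In A1 libraries 2 and 4 were both high, and 1 of the 7 members was highest in library 2, where the other long genes peaked. In control and in A1 + OVA, 6 of the 7 were highest in the same library as the other long genes, control library 3 and A1 + OVA library 4. The median deviation of the other long genes reached from -0.14 to 0.11 in control, from -0.16 to 0.12 with A1 and from -0.13 to 0.11 with A1 + OVA.

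**Figure D5:**
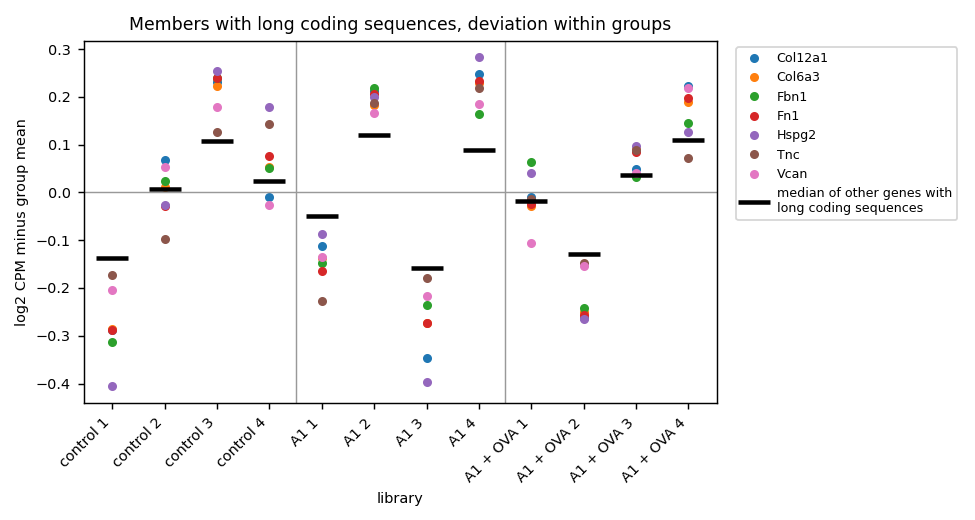
Deviation of log2 CPM from the group mean in each library for the 7 members with at least 6 kb of coding sequence (coloured points), with the median of the 293 other tested genes of that length as a black bar. Control library 1, A1 library 3 and A1 + OVA library 2 are low for members and other genes alike.

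The 293 other long genes differed between groups by medians of -0.09 with A1, 0.004 with A1 + OVA and 0.09 between A1 + OVA and A1 (log2). The deviation of these genes from their group means in each library was used as a covariate, a setting chosen after seeing the data. It was centred within each group, so it left these differences of long genes between groups in place. With it, 25 members were higher and 13 lower with A1, and 26 were higher and 13 lower with A1 + OVA. Among all 11314 tested genes, 7389 and 6887 were called with it in these comparisons, and 7098 and 6518 without it. Between A1 + OVA and A1 the covariate gave 14 higher and 7 lower members in place of 5 and 4. Calls over all tested genes rose too, from 1455 to 1984. In that setting Col6a3 (0.25, adjusted p = 3.49e-06) and Col12a1 (0.34, adjusted p = 5.83e-08) had higher values with A1 + OVA than with A1. Tnc (-0.23, adjusted p = 0.000584) and Fbn1 (-0.18, adjusted p = 0.00095) had lower ones. The value of Col12a1 was 0.33 without the covariate, but its SE fell from 0.113 to 0.034. The difference of long genes between groups stayed in these values while the spread that goes with it was removed. The adjusted p-values of this setting therefore understate the uncertainty and are not read as calls.

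Other matrix genes, in lists written with the whole-series results at hand, gave 27 higher and 24 lower genes with A1 among 71 tested of 127, and 26 higher and 25 lower with A1 + OVA. That is 71.8% called in each, beside 62.7% of all tested genes with A1 (31.7% higher and 31.1% lower) and 57.6% with A1 + OVA (29.7% and 27.9%), against which the counts of the single lists also stand. Values in this and the next paragraph are log2 fold changes with A1 unless a unit is given, and the median over all tested genes was -0.002. In collagen folding and processing, 11 of 20 tested genes were higher and 3 lower with A1, and the list's median was 0.13. Serpinh1, the collagen chaperone HSP47, had 0.16, P4hb 0.14 and Ppib 0.13, all called, and the procollagen C-proteinase gene Bmp1 0.06 ± 0.06 (SE, adjusted p = 0.415). The largest changes there were in the tolloid-like protease gene Tll1 (2.06, from 0.309 ± 0.117 to 1.30 ± 0.105 CPM), the procollagen N-proteinase gene Adamts14 (0.93), the proteinase enhancer Pcolce2 (0.70) and the prolyl 3-hydroxylase gene P3h2 (-0.64). Of 7 tested other collagen chains, Col28a1 (1.56) and Col5a3 (0.78) were higher, none was lower and the median was 0.04.

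Of 11 other basement membrane genes tested, 6 were higher and 3 lower with A1, among them Smoc1 (2.53), Ntn4 (1.71), Lama5 (0.88) and Lama1 (-1.05), with a median of 0.52. The A1 + OVA median was 0.23, from 6 rises and 2 falls. Ntn4 encodes netrin-4, and Lama5 and Lama1 encode laminin α chains. Of 7 other proteoglycan and hyaluronan synthase genes tested, Has2 rose (2.59), 5 fell and 1 did not pass, with a median of -1.26. The counts were the same with A1 + OVA, with a median of -0.62. Has2 makes hyaluronan, the sugar chain that versican binds. The falls included the small leucine-rich proteoglycans Omd (-1.86), Prelp (-1.35) and Ogn (-1.32), and Ogn went from 623 ± 36.3 to 249.6 ± 17.4 CPM. The elastic fibre list had 3 higher and 3 lower of 9, with Fbln7 at -1.10, Ltbp1 at 0.60, Emilin1 at -0.57 and Emilin2 at -0.48. Ltbp1 encodes a binding protein of latent TGF-β. Among 17 other glycoproteins 4 were higher and 10 lower (median -0.56), with Mgp, an inhibitor of calcification, at 2.37, Comp at -1.74, Spon2 at -1.35 and Abi3bp at -1.01.

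Markers of several stromal cell types moved with these changes. The 11 MSC markers summed to 6274 to 6640 CPM in control, 4798 to 5022 CPM with A1 and 4715 to 4947 CPM with A1 + OVA, and Cxcl12 was at 3753 to 4029, 1444 to 1569 and 1654 to 1775 CPM. Of the 9 tested, Cxcl12 (-1.37), Pdgfra (-0.99), Vcam1 (-0.95) and Ly6a (-0.59) fell and Cd44 (1.39) and Itgb1 (0.62) rose with A1, while Pdgfrb, Eng and Nt5e did not pass. With A1 + OVA 5 were lower, Pdgfrb among them (-0.14), and the same 2 were higher. The 4 smooth muscle markers summed to 2136 to 2434 CPM in control, 4242 to 4454 CPM with A1 and 4445 to 4671 CPM with A1 + OVA, nearly all of it Acta2. Acta2 (0.94) and Cnn1 (2.19) rose with A1, Des did not pass and Myh11 had at most 7 counts in any library. The adipocyte markers summed to 145 to 153 CPM in control and 102 to 115 CPM in the treated libraries, but the members went different ways. Cebpa was at 83.9 ± 1.79 CPM in control, 41.7 ± 5.02 with A1 and 37.1 ± 0.899 with A1 + OVA, whereas Fabp4 was at 59.3 to 66.7, 60.8 to 69.5 and 64.6 to 76.5 CPM and was called higher with A1 + OVA (0.17, adjusted p = 0.011). Adipoq, at 2.20 ± 0.828 CPM in control, was called lower in both treatments, and Plin1 had at most 11 counts. Of the osteoblast markers, Alpl fell (-0.75) and Dmp1 rose (1.71) with A1, Dmp1 from 0.75 to 2.48 CPM. Of the chondrocyte markers, Sox9 rose with A1 (0.30) and did not pass with A1 + OVA (-0.13). The other markers of these 2 lists did not pass the filter. The part of these markers in the matrix changes was not tested.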

How the data were processed

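RNA-seq was measured in 12 libraries of mouse MSCs. The authors prepared strand-specific mRNA libraries by poly(A) selection, aligned the reads with STAR (2.7, with bcl2fastq 2.20 for demultiplexing, per the submitters' processing notes) to GRCm38, summarised them by gene (featureCounts 2.0) and deposited raw counts, not normalized. Poly(A) selection leaves out transcripts without a tail.

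Groups came from the sample titles. Symbols, biotypes, coordinates and coding lengths were taken from GENCODE M21, which holds 99.53% of the 55487 identifiers. Counts of protein-coding genes were filtered with filterByExpr, scaled by TMM, and compared in a single quasi-likelihood fit of edgeR 4.0.16 (glmQLFit and glmQLFTest under R 4.3.3) over all 12 libraries by group, with Benjamini-Hochberg adjustment over 11314 genes. Summed shares and chain ratios (log2, prior count 2) were compared by exact two-sided permutation tests over the 70 splits of 4 against 4 libraries. Alternatives were DESeq2 1.42.0, other scaling factors, other filters, all gene types, only the groups compared, a log2 threshold of 1, the replicate number as a block, each library left out, and a covariate for long genes. On simulated counts for A1 against control (11314 genes), edgeR recovered 99% of 100 genes changed by 1 log2 unit and 88% of 100 changed by 0.5, with 14 false calls. The simulation gave every gene the same spread beyond counting and changed 200 genes in all, whereas 62.7% of tested genes were called with A1. Its figures therefore do not give the recovery or the false calls in these data. No 2 replicates were copies of 1 library (variance 2.18 to 9.00 times that of counting alone). Libraries held 13702348 to 16881995 counts, and floors of 3 counts cover counting error only.

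The members and lists were chosen with earlier results of these data known. All 50 members may be named. Of each other matrix list, the text names up to 4 genes with the largest change in A1 against control among those with an adjusted p under 0.05, and Serpinh1, P4hb, Ppib and Bmp1. Upstream windows came from RefSeq (GRCm38.p6) and matched 33 of the 50 members.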

Additional observations from a re-analysis of the deposited data

Results flagged for a closer look

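In 3 of the 132 groups of 4 libraries examined for the members, 1 library lay far from the other three, beside the 5% of groups that chance would give. Lox was at 5416 CPM in control library 2 and at 5006 to 5061 CPM in the other control libraries. Sparc was at 2241 CPM in A1 library 3 and at 2223 CPM in each of the others, a small gap in absolute terms. Col18a1 was at 11.06 CPM in A1 library 1 and at 11.47 to 11.53 CPM in the others.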

How the results depend on the processing

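Of the called members, 32 of 35 with A1, 35 of 37 with A1 + OVA and 5 of 9 between A1 + OVA and A1 passed the test in all 21 alternative settings, and none of the called members changed sign. At a log2 change of 1 or more, 3 members were higher and 2 lower with A1, 2 were higher and 2 lower with A1 + OVA, and 0 were higher and 0 lower between A1 + OVA and A1. The share of all tested genes at that threshold is not given here, so these counts describe the members only. With no filter on low counts the last comparison gave 8 higher and 7 lower members, and with the long-gene covariate, chosen after seeing the data, 14 and 7. Calls over all genes in that comparison rose as well, from 1455 to 1545 with no filter and to 1984 with the covariate. With each library left out in turn, 21 to 24 members were higher and 11 to 12 lower with A1 (called changes of at least 0.5 log2 units, here larger changes, 10 to 12 and 6 to 7), 24 to 26 and 12 to 13 with A1 + OVA (larger changes 10 to 11 and 3 to 5, the 3 without control library 3), and 2 to 9 and 3 to 6 between A1 + OVA and A1 (larger changes 0 to 1 and 0 to 0). Of the latter, 9 members were higher without A1 + OVA library 2, 3 without A1 library 1, A1 library 3 or A1 + OVA library 4, and 2 without A1 + OVA library 3. Calls over all tested genes also varied with the library left out. They ran from 6707 to 7175 with A1, from 6098 to 6553 with A1 + OVA and from 971 to 1619 between A1 + OVA and A1. Values that changed sign were all far from the threshold: Col1a1 with A1 + OVA (-0.054 to 0.021 with 1 library left out), Col15a1 with A1 + OVA (-0.41 to 0.28 with 1 library left out), Col1a1 between A1 + OVA and A1 (-0.020 to 0.056 with 1 library left out), Col15a1 between A1 + OVA and A1 (-0.31 to 0.38 with 1 library left out), P4ha2 between A1 + OVA and A1 (-0.036 to 0.020 with 1 library left out) and Plod3 between A1 + OVA and A1 (-0.038 to 0.031 with 1 library left out). The cause of these shifts was not tested. Deviations of same-numbered libraries were hardly correlated (mean correlation 0.021 over 12 same-numbered pairs, from -0.132 to 0.156, and -0.007 over 36 others). These correlations cannot settle whether equal numbers share a mouse or culture, which the labels do not state. With the replicate number as a block, 24 members were higher and 12 lower with A1, 25 and 13 with A1 + OVA, and 7 and 5 between A1 + OVA and A1. Over all tested genes the block gave 7134, 6580 and 1488 calls in these comparisons. Upper-quartile scaling moved the median of all genes from -0.002 to -0.031 log2 units with A1 and from 0.004 to -0.019 with A1 + OVA. Counts of 6 or fewer in 5 members and of 0 in Eln leave these 6 genes undescribed at this depth, and 4 libraries per group limit the precision.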
